A study of Homo sapiens with 12 samples.

Results

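The genes described here are 10 integrin subunits that fibroblasts use to hold their matrix. They were chosen by name as known receptor chains for collagen, laminin and RGD-containing ligands, with earlier results of these data known. They are 10 of the 61541 gene identifiers in the deposited tables: ITGA1, ITGA2, ITGA11, ITGA3, ITGA6, ITGA5, ITGAV, ITGA4, ITGB1 and ITGB5. All 10 passed the filter on low counts. The cells were IMR90, an established line of primary human fetal lung fibroblasts with wild-type genotype, and every library came from cells given doxorubicin, an anthracycline that damages DNA and is used to bring on senescence. Cells grew on a 2 kPa hydrogel or on tissue-culture plastic, were exposed for a day and were then kept in culture for more than a week. The groups, with 3 libraries each, were gel with 250 nM doxorubicin, plastic with 250 nM, gel with 100 nM and plastic with 100 nM. The sample titles give these doses in nM, while the treatment protocol gives the same figures in µM, and the growth protocol speaks of PDMS-coated plates where the titles say hydrogel. By its title, the series asks what substrate stiffness does to secretory phenotypes and transcriptomes in doxorubicin-treated lung fibroblasts. Untreated libraries were not analysed here, so the values compare substrates and doses and not drug with vehicle.

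An integrin is a heterodimer of an alpha and a beta subunit that spans the plasma membrane, binds a matrix ligand outside the cell and links through talin, kindlin and other adaptors to actin inside it. The alpha chain largely sets the ligand. Alpha 1, 2 and 11 pair with beta 1 to bind collagens, alpha 3 and 6 bind laminins, alpha 5 with beta 1 is the main fibronectin receptor, and alpha V pairs with several beta chains, beta 5 among them, to bind RGD ligands such as vitronectin. Alpha 4 with beta 1 binds VCAM1 and a spliced segment of fibronectin. Beta 1 is the shared partner of most of these alpha chains, and because integrins carry force between matrix and cytoskeleton they are among the receptors by which fibroblasts sense stiffness.

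Polyadenylated RNA was sequenced, to a depth of 2229069 to 2730309 expected counts per library in the 250 nM groups and 5887056 to 7351916 in the 100 nM groups. These totals include 3 loci of a ribosomal DNA cluster, which held 13.2% to 27.4% of counts at 250 nM and 14.3% to 30.7% at 100 nM. Dose could not be told apart from library set, since molecular identifiers appear in the file names of the 250 nM set alone. Replicate 1 of gel at 250 nM stood apart: its mean correlation across genes with the other libraries of its group was 0.845, while the other 11 libraries ranged from 0.895 to 0.958. In that library mitochondrial messenger RNA made up 6.56% of counts, against 1.66% to 3.46% in the other 11. The ribosomal DNA cluster made up 13.2% there, the lowest share, against 14.3% to 30.7% in the other 11. Fibroblast identity was plain, with 6 of 6 fibroblast markers tested, at a summed group mean of 2745 CPM on gel and 5188 CPM on plastic at 250 nM, and 4722 CPM on gel and 6678 CPM on plastic at 100 nM. The sum includes the collagen genes COL1A1 and COL1A2 and moves with them. Over both doses 5 of the 6 markers had a lower fitted value on gel, and edgeR called 3 lower, those 2 genes among them. Leukocyte, endothelial and epithelial markers were scarce. Summed leukocyte markers ranged over the groups from 0.181 to 0.855 CPM (0 of 6 tested; CD3E and ITGB2 at 0 in all 12 libraries), endothelial markers from 0.141 to 1.19 CPM (0 of 6 tested; CLDN5 at 0) and epithelial markers from 2.41 to 6.74 CPM (1 of 6 tested; KRT5, NKX2-1 and SFTPC at 0). Pericyte and smooth muscle markers, 3 of 5 tested, summed to 118 CPM on gel and 118 CPM on plastic at 250 nM, and to 65.3 CPM on gel and 66.9 CPM on plastic at 100 nM. The labels leave unsaid whether the replicates are separate cultures, so p-values measure the spread between these libraries, which may be technical. In such bulk RNA, fewer cells with a transcript and less of it per cell cannot be told apart.

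ITGB1 messenger RNA dominated the integrins in every group. On the TPM scale, which divides by transcript length and so allows genes to be compared, ITGB1 averaged 1525 ± 1018 TPM on gel at 250 nM, 1994 ± 257 on plastic at 250 nM, 2478 ± 527 on gel at 100 nM and 2328 ± 259 on plastic at 100 nM (SD, n = 3 each). The next member was ITGB5 in 3 of the groups, at 144.5 ± 17 TPM on gel and 147 ± 20.6 on plastic at 250 nM, and at 79.8 ± 17.1 on plastic at 100 nM. On gel at 100 nM ITGA6 came before it, at 127 ± 66.8 TPM against 76.7 ± 22.2 for ITGB5, with overlapping ranges. ITGA6 and ITGA2 were the most abundant alpha chains in each group, and their ranges overlapped in every group except plastic at 100 nM. ITGA3 followed, between 17.4 and 29.2 TPM by group mean, then ITGAV, ITGA5 and ITGA1 between 4.09 and 13.7 TPM, and the range of ITGAV overlapped that of the next lower member in all 4 groups. The place of ITGA3 depends on a short RSEM effective length, on average 1077 bases at 100 nM and 1663 at 250 nM. For ITGAV the averages were 6606 and 6776 bases. In CPM, which is not divided by length, ITGA3 ranged from 20.4 to 60.5 and ITGAV from 58.2 to 100.4 over the libraries. The lead of ITGB1 also carries a short length, on average 1030 bases at 100 nM and 1430 at 250 nM. In CPM ITGB1 ranged from 982 to 2911, ITGA6 from 65.8 to 703 and ITGA2 from 199.6 to 699. ITGA4 and ITGA11 were the least abundant, with group means from 0.597 to 5.76 TPM for ITGA4 and from 1.43 to 2.26 TPM for ITGA11, and their ranges overlapped on plastic at 250 nM and on gel at 100 nM. In replicate 1 of gel at 250 nM, RSEM gave ITGB1 an effective length of 2753 bases, against 833 to 1237 bases in the other 11 libraries, so the TPM of ITGB1 there, 349, carries a different length as well as fewer reads.

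Summed over the 8 alpha members, laminin receptor chains (ITGA3 and ITGA6) made up 26.5%, 63.7% and 61.4% of alpha TPM in replicates 1, 2 and 3 on gel at 250 nM, and 32.7%, 49.1% and 46.1% on plastic. At 100 nM they made up 35.5%, 66.6% and 68.3% on gel and 56.2%, 56.0% and 46.1% on plastic. Replicates 2 and 3 on gel thus lay above all plastic libraries of their dose and replicate 1 on gel below all of them. Collagen receptor chains took 56.2% in replicate 1 of gel and 50.1% in replicate 1 of plastic at 250 nM and 52.3% in replicate 1 of gel at 100 nM, against 24.7% to 28.4% in replicates 2 and 3 of the gel groups. These shares move against each other by construction and carry the RSEM lengths, among them the short one of ITGA3. The RGD receptor chains ITGA5 and ITGAV together stayed between 15.1 and 22.2 TPM in all 12 libraries.

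**Figure D1:**
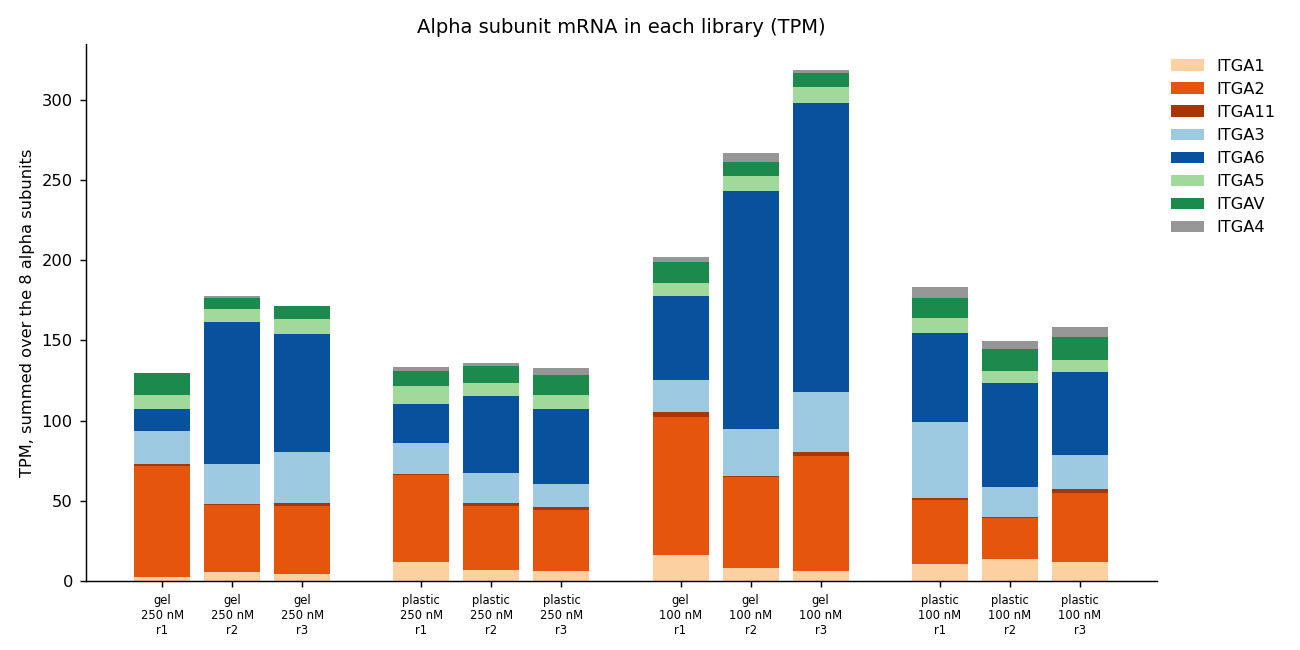
Messenger RNA of the 8 alpha subunits in each library, stacked bars in TPM, with the libraries of gel at 250 nM, plastic at 250 nM, gel at 100 nM and plastic at 100 nM from left to right (r1 to r3: replicates 1 to 3). ITGA2 (orange) and ITGA6 (dark blue) fill most of each bar. ITGA6 is lowest for its group in replicate 1 of gel at 250 nM (13.9 TPM), plastic at 250 nM (24.7 TPM) and gel at 100 nM (52.3 TPM). On plastic at 100 nM it ranges from 51.4 to 64.7 TPM.

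Whether a soft substrate changes the receptors was asked by setting gel against plastic within each dose. No member passed edgeR's test in any gel comparison. At 250 nM edgeR's quasi-likelihood test with Benjamini-Hochberg adjustment called 0 of 10 members (3 at an unadjusted p under 0.05; 0 by DESeq2, 0 by limma-voom and 0 by limma-trend on TPM), beside 0.00811% of all 12329 tested genes called by edgeR, 10.0% at an unadjusted p under 0.05, 0.754% by DESeq2 and 1.31% by limma-voom. At 100 nM it called 0 of 10 (2 at an unadjusted p under 0.05; 1 by DESeq2, 2 by limma-voom and 0 by limma-trend on TPM), beside 0.227% of genes by edgeR, 9.90% at an unadjusted p under 0.05, 1.28% by DESeq2 and 3.63% by limma-voom. Averaged over both doses it called 0 of 10 (4 at an unadjusted p under 0.05; 1 by DESeq2, 4 by limma-voom and 0 by limma-trend on TPM), beside 0.754% of genes by edgeR, 12.5% at an unadjusted p under 0.05, 3.12% by DESeq2 and 6.50% by limma-voom. The median log2 change of the members was -0.05 at 250 nM, 0.15 at 100 nM and 0.08 over both doses, where the medians of all tested genes were -0.02, -0.01 and -0.00476. The libraries of gel and plastic did not overlap in 2 members at 250 nM (15.1% of all genes), in 3 at 100 nM (19.0%) and in 0 with the same direction at both doses (3.18%). The difference between the gel effects at the 2 doses was called in 0 members and in 0% of all genes (1 member and 779 genes, or 6.32%, at an unadjusted p under 0.05; DESeq2 and limma-voom called 0 of both).

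**Figure D2:**
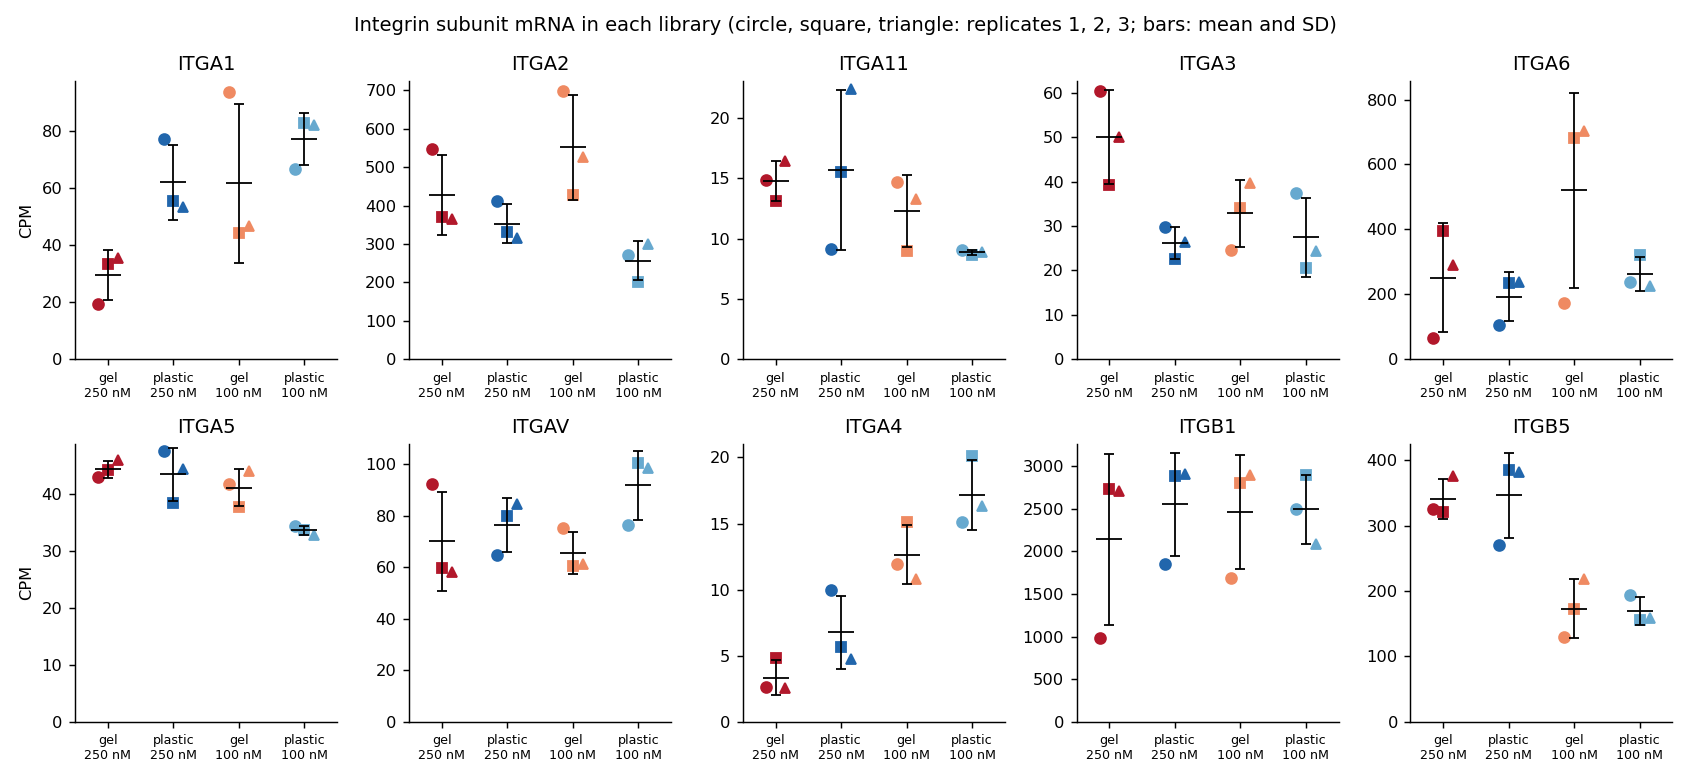
CPM of the 10 integrin subunits in each library, on linear axes that start at 0, with gel and plastic at 250 nM and then gel and plastic at 100 nM from left to right. Symbols are replicates and bars are the mean and SD of 3 libraries. ITGA2 at 100 nM and ITGA3 at 250 nM lie higher on gel without overlap, and ITGB5 is higher and ITGA4 lower at 250 nM than at 100 nM.

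Of the collagen receptor chains none passed the test on gel by edgeR, and ITGA2 and ITGA1 had opposite signs. ITGA2 (chr5:52989326-53094779, plus strand, GRCh38 with GENCODE 29, as for all gene positions below) encodes the alpha chain of the alpha 2 beta 1 receptor of collagen I. It had 547, 370.5 and 364 CPM on gel and 411, 332 and 315 CPM on plastic at 250 nM, and 699, 428 and 527 CPM on gel and 270.0, 199.6 and 301 CPM on plastic at 100 nM. The groups overlapped at 250 nM, and at 100 nM every gel library was above every plastic library. The fitted log2 change on gel was 0.28 (SE 0.24, adjusted p = 0.747) at 250 nM and 1.10 (SE 0.24, 2.15-fold, adjusted p = 0.110) at 100 nM. This was the 53rd smallest p of 12329 genes at 100 nM and did not pass. DESeq2 (adjusted p = 0.00445), limma-voom (0.00418) and the fit without replicate 1 of gel at 250 nM (0.0273) did call it, while over all alternatives its adjusted p ran from 0.00208 to 0.438. The difference between its gel effects, 250 nM minus 100 nM, was -0.83 (SE 0.34, adjusted p = 0.750).

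ITGA1 (chr5:52787896-52959210, plus strand), the alpha chain of a receptor with a preference for collagen IV, pointed the other way. It had 19.5, 33.5 and 35.4 CPM on gel and 77.4, 55.4 and 53.4 CPM on plastic at 250 nM, and 94.0, 44.4 and 46.9 CPM on gel and 66.9, 82.9 and 82.2 CPM on plastic at 100 nM. Gel lay below plastic without overlap at 250 nM, and at 100 nM replicate 1 of gel was the highest of all 12 libraries while the other 2 gel libraries were below all plastic libraries. Its log2 change on gel was -1.08 (SE 0.32, adjusted p = 0.286) at 250 nM and -0.33 (SE 0.30, adjusted p = 0.769) at 100 nM. Over both doses it was -0.70 (SE 0.22, adjusted p = 0.163), and without replicate 1 of gel at 100 nM it was -0.92 with an adjusted p of 0.0348. The gene PELO lies within ITGA1 on the same strand and averaged 178 expected counts per library against 282 for ITGA1, so reads in the shared stretch could have been split between them.

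ITGA11 (chr15:68296533-68432162, minus strand) forms a receptor of fibrillar collagen that is typical of fibroblasts. It was low, at 14.9, 13.1 and 16.4 CPM on gel and 9.10, 15.5 and 22.4 CPM on plastic at 250 nM, and 14.7, 8.94 and 13.3 CPM on gel and 9.07, 8.67 and 8.87 CPM on plastic at 100 nM. The ranges overlapped at both doses, and the log2 changes on gel were -0.08 (SE 0.32, adjusted p = 0.956) at 250 nM and 0.47 (SE 0.31, adjusted p = 0.658) at 100 nM.

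Of the laminin receptor chains, ITGA3 (chr17:50055968-50090481, plus strand), a chain that pairs with beta 1 to bind laminins of basement membranes, had 60.5, 39.3 and 50.1 CPM on gel and 29.8, 22.5 and 26.3 CPM on plastic at 250 nM. At 100 nM it had 24.7, 34 and 39.8 CPM on gel and 37.4, 20.4 and 24.4 CPM on plastic. The substrates were apart at 250 nM and overlapped at 100 nM. The log2 change on gel was 0.93 (SE 0.28, 1.91-fold, adjusted p = 0.293) at 250 nM and 0.26 (SE 0.26, adjusted p = 0.803) at 100 nM. In replicate 1 of gel at 250 nM RSEM gave ITGA3 an effective length of 2895 bases, against 898 to 1609 bases elsewhere. In TPM the gel libraries at 250 nM had 20.45, 25.0 and 31.6 and the plastic libraries 19.0, 18.7 and 14.6. The fit on log2(TPM + 1) gave a gel change of 0.52 at that dose.

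ITGA6 (chr2:172427354-172506282, plus strand), the alpha chain of a broad laminin receptor, was the most variable member. It had 65.8, 395 and 289.5 CPM on gel and 104, 233 and 238 CPM on plastic at 250 nM, and 174, 682 and 703 CPM on gel and 238, 321 and 227 CPM on plastic at 100 nM. Replicate 1 was the lowest library in both gel groups and in plastic at 250 nM, and the remaining gel libraries were above all plastic libraries of their dose. The highest library had 10.7 times the CPM of the lowest, and the gene-wise biological coefficient of variation was 0.481, the largest of the 10 members. The log2 change on gel was 0.38 (SE 0.57, 95% interval -0.85 to 1.61, adjusted p = 0.867) at 250 nM and 0.99 (SE 0.57, interval -0.23 to 2.21, adjusted p = 0.599) at 100 nM. Without replicate 1 of both gel groups, a choice made after the values were seen, it was 1.40 with an adjusted p of 0.0461 at 100 nM and 1.12 with an adjusted p of 0.0132 over both doses. ITGB4, the other beta chain with which alpha 6 pairs, had 4 counts in all 12 libraries together.

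**Figure D3:**
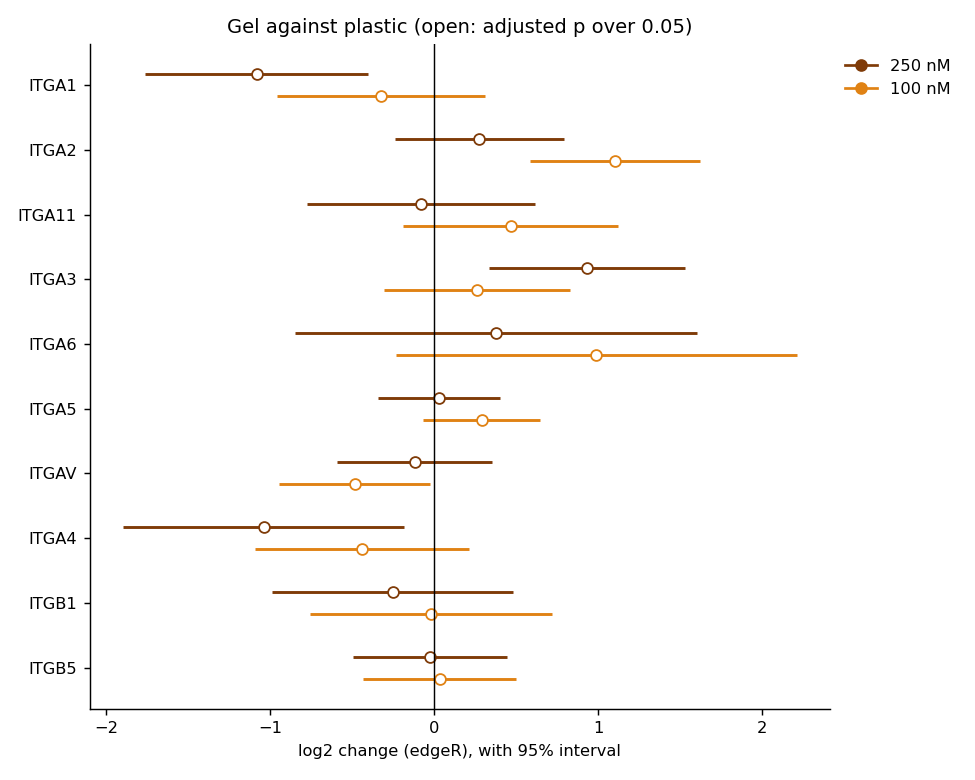
Log2 change of each integrin subunit on gel relative to plastic, fitted by edgeR, at 250 nM (dark, upper) and 100 nM (light, lower). Lines are 95% intervals and open symbols have an adjusted p over 0.05. All 20 symbols are open, and the ITGA6 intervals are the widest.

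ITGB1 (chr10:32900319-33005792, minus strand) showed the same low libraries. It had 982, 2729.7 and 2714 CPM on gel and 1856, 2893 and 2911 CPM on plastic at 250 nM, and 1691, 2804 and 2898 CPM on gel and 2496, 2902 and 2092 CPM on plastic at 100 nM. Replicate 1 had 0.361 of the mean of replicates 2 and 3 on gel and 0.640 on plastic at 250 nM, and 0.593 on gel and 1.00 on plastic at 100 nM. For ITGA6 the same ratios were 0.192 and 0.442 at 250 nM and 0.251 and 0.870 at 100 nM. The log2 change of ITGB1 on gel was -0.25 (SE 0.34, adjusted p = 0.851) at 250 nM and -0.02 (SE 0.34, interval -0.76 to 0.72, adjusted p = 0.992) at 100 nM, and the direction turned positive at either dose when replicate 1 of that dose's gel group was left out.

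Across the 12 libraries, with log2 CPM centred within each dose, Pearson's r of ITGB1 was 0.846 with ITGA6 and between -0.532 and 0.239 with the other 7 alpha chains. Centred within each group instead, r was 0.965 between ITGB1 and ITGA6, -0.877 between ITGB1 and ITGA2 and -0.876 between ITGA2 and ITGA6. These are descriptions over 12 libraries that differed in depth and quality, all genes of a library sharing its own, and much of the range came from the replicate 1 libraries. The 5 genes most like ITGB1 by the within-dose measure were DSP (r = 0.987), AK4 (0.983), ARHGAP29 (0.974), RSU1 (0.969) and USO1 (0.964). They were picked as the highest r among 12329 tested genes. DSP encodes desmoplakin, a desmosomal protein, and RSU1 a partner of the focal adhesion protein PINCH. What moved the replicate 1 libraries was not tested.

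**Figure D4:**
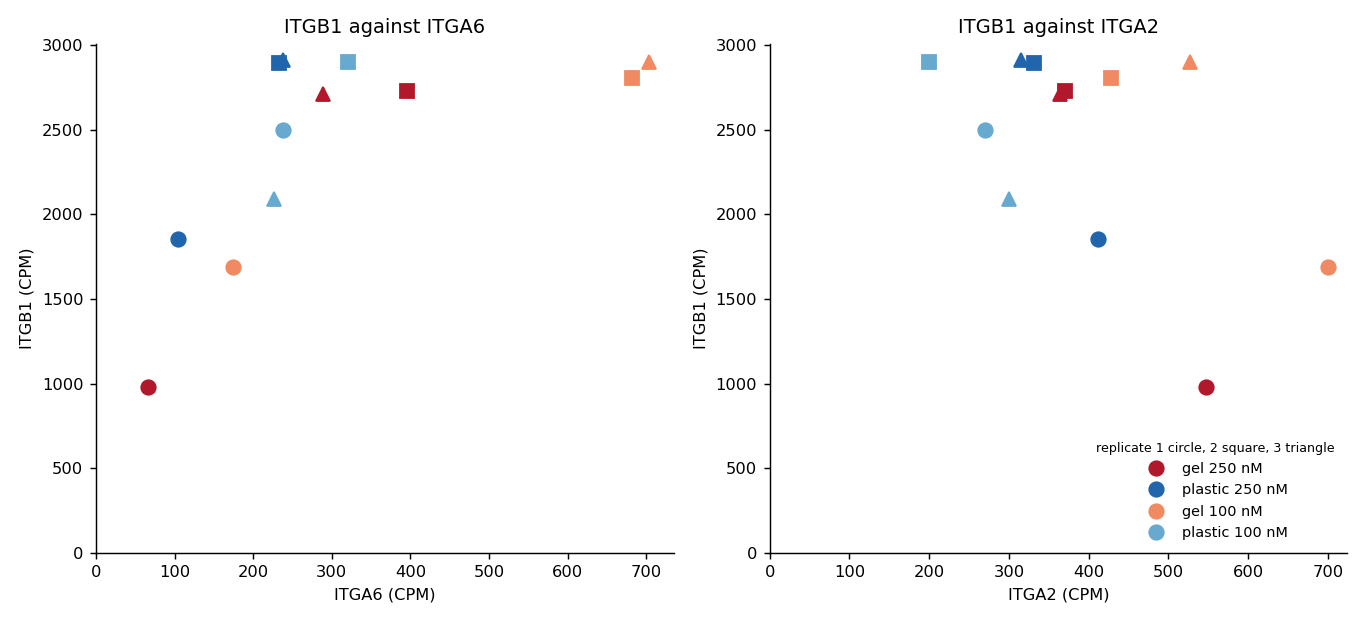
CPM of ITGB1 in each library against ITGA6 (left) and ITGA2 (right), on linear axes, coloured by group with the symbol giving the replicate. ITGB1 is lowest, at 982, 1691 and 1856 CPM, in 3 replicate 1 libraries, where ITGA6 is also lowest and ITGA2 is high for its group.

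Because ITGA6 and ITGB1 varied together over libraries, the 250 bases before a RefSeq start of each (GRCh38.p14) are shown, read 5′ to 3′ on the gene's strand. RefSeq lists 2 starts for each, and the one nearest the GENCODE gene start was taken. For ITGA6 it lies 18 bases before that start, but for ITGB1 it lies 47562 bases inside the gene, so the ITGB1 window is that of an internal start and not of the gene's outermost one. Capitals mark matches on either strand to the TEAD motif GGAATG and the Sp1 motif GGGCGG; the AP-1 motif TGANTCA was searched as well.
ITGA6, chr2:172427086-172427335, plus strand: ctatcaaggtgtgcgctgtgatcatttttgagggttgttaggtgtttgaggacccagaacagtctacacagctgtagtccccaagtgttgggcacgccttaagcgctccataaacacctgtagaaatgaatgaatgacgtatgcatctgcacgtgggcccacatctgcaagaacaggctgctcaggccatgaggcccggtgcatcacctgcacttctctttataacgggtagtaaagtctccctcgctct
ITGB1, chr10:32958231-32958480, minus strand: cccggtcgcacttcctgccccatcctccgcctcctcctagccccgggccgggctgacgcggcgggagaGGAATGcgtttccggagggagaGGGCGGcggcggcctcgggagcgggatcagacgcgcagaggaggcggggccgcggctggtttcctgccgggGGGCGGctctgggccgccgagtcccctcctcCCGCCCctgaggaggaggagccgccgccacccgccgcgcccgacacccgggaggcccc
The ITGB1 window held 1 TEAD match, whose first base lies 182 bases before the start, and 3 Sp1 matches, with a GC content of 78.4%. The ITGA6 window held no match to the motifs searched and had a GC content of 50.8%. Of the 9 members with a RefSeq window (ITGA1, ITGA2, ITGA4, ITGA5, ITGA6, ITGA11, ITGAV, ITGB1 and ITGB5), 0 held the AP-1 motif, 2 the TEAD motif (ITGA5 and ITGB1) and 4 the Sp1 motif (ITGA2, ITGA5, ITGB1 and ITGB5). Among all 35116 windows of that length the shares were 6.57%, 11.9% and 42.6%. A match describes letters only.

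Of the RGD receptor chains, ITGA5 and ITGAV had the narrowest ranges of the 10 members over the 12 libraries, while ITGB5 differed between doses. ITGA5 (chr12:54395261-54419460, minus strand), the fibronectin receptor chain, had 43.0, 44.2 and 45.9 CPM on gel and 47.6, 38.5 and 44.4 CPM on plastic at 250 nM, and 41.7, 37.7 and 44.1 CPM on gel and 34.4, 33.8 and 32.8 CPM on plastic at 100 nM. Its highest library had 1.45 times the CPM of its lowest, against 1.73 times for ITGAV and 2.99 times for ITGB5. Gel was above plastic without overlap at 100 nM, by a log2 change of 0.29 (SE 0.17, adjusted p = 0.600), and at 250 nM the groups overlapped, with a change of 0.03 (SE 0.17, interval -0.35 to 0.40, adjusted p = 0.974).

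ITGAV (chr2:186590065-186680901, plus strand), the alpha chain of the vitronectin receptors and of integrins that release latent TGF-beta, had 92.2, 59.7 and 58.2 CPM on gel and 64.6, 79.8 and 84.4 CPM on plastic at 250 nM. At 100 nM it had 75.1, 60.5 and 61.0 CPM on gel and 76.3, 100.4 and 98.6 CPM on plastic. Gel was below plastic without overlap at 100 nM and overlapped it at 250 nM. The log2 changes on gel were -0.12 (SE 0.22, adjusted p = 0.896) at 250 nM and -0.49 (SE 0.21, adjusted p = 0.482) at 100 nM.

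ITGB5 (chr3:124761948-124901418, minus strand), which pairs with alpha V, had 326, 320.5 and 375 CPM on gel and 271, 385 and 382 CPM on plastic at 250 nM, and 129, 173 and 218 CPM on gel and 194, 156 and 158 CPM on plastic at 100 nM. Gel and plastic overlapped at both doses and the doses did not overlap on either substrate. The log2 change on gel was -0.02 (SE 0.22, interval -0.49 to 0.45, adjusted p = 0.983) at 250 nM and 0.03 (SE 0.22, interval -0.43 to 0.50, adjusted p = 0.976) at 100 nM. The 5 genes most like it by the within-dose measure were CBX6 (r = 0.911), RNF41 (0.891), PICALM (0.888), TP53I11 (0.867) and LGMN (0.867). They were picked as the highest r among 12329 tested genes over 12 libraries, so high values are partly a product of that choice.

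ITGA4 (chr2:181457202-181536187, plus strand), the VCAM1 and fibronectin receptor chain, was at 2.64, 4.86 and 2.53 CPM on gel and 9.93, 5.63 and 4.71 CPM on plastic at 250 nM, and at 12, 15.1 and 10.8 CPM on gel and 15.1, 20.1 and 16.3 CPM on plastic at 100 nM. The substrates overlapped by a narrow margin at both doses, and the doses did not overlap on either substrate. Its log2 change on gel was -1.04 (SE 0.40, adjusted p = 0.382) at 250 nM and -0.44 (SE 0.30, adjusted p = 0.682) at 100 nM. The 3 gel libraries at 250 nM held 23.8 expected counts of it together.

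Between the doses 3 members passed the test, ITGA4, ITGA1 and ITGB5, with the limit that dose and library set cannot be told apart. On gel, 250 against 100 nM, edgeR called 3 of 10 members, beside 13.8% of all tested genes: ITGA4 was 3.84-fold lower (log2 change -1.94, SE 0.37, adjusted p = 0.00735), ITGA1 2.10-fold lower (-1.07, SE 0.31, adjusted p = 0.0367) and ITGB5 1.97-fold higher (0.97, SE 0.22, adjusted p = 0.0146). On plastic it called 2 of 10, beside 8.52%: ITGA4 was 2.53-fold lower (-1.34, SE 0.34, adjusted p = 0.0286) and ITGB5 2.04-fold higher (1.03, SE 0.22, adjusted p = 0.0147). The groups did not overlap in 3 members on gel (35.8% of all genes) and in 5 on plastic (35.8%), where ITGA2, ITGA5, ITGA11 and ITGB5 were higher and ITGA4 lower at 250 nM. The median log2 change of the members was -0.05 on gel and -0.02 on plastic, where all tested genes had -0.02 and -0.03.

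The call of ITGA4 on gel held in all 25 alternatives. The call of ITGB5 on gel was lost without replicate 1 of gel at 100 nM (adjusted p = 0.0529) and with only the gel groups fitted (0.0502). That of ITGA1 on gel held in 13 of 25 alternatives and was lost without replicate 1 of gel at 100 nM (log2 change -0.63, adjusted p = 0.152), and when a library at 250 nM was left out, be it gel replicate 1 (0.0958) or 2 (0.0531) or plastic replicate 2 (0.0549) or 3 (0.0527). On plastic the ITGB5 call was lost without replicate 2 at 100 nM (0.0534) and without replicate 2 (0.0965) or replicate 3 (0.0924) at 250 nM. The ITGA4 call on plastic was lost without replicate 2 (0.0891) or replicate 3 (0.0536) at 100 nM and without replicate 2 (0.136) or replicate 3 (0.148) at 250 nM.

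Of the other members, ITGA11 on plastic (0.82, SE 0.32, adjusted p = 0.120), ITGA5 on plastic (0.37, SE 0.17, adjusted p = 0.189) and ITGA3 on gel (0.61, SE 0.27, adjusted p = 0.137) had unadjusted p-values under 0.05 and did not pass. ITGA6 had log2 changes of -1.06 on gel (SE 0.57, adjusted p = 0.222) and -0.45 on plastic (SE 0.57, adjusted p = 0.667). ITGB1 had -0.20 on gel (SE 0.34, interval -0.94 to 0.53, adjusted p = 0.722) and 0.03 on plastic (SE 0.34, interval -0.70 to 0.77, adjusted p = 0.967).

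**Figure D5:**
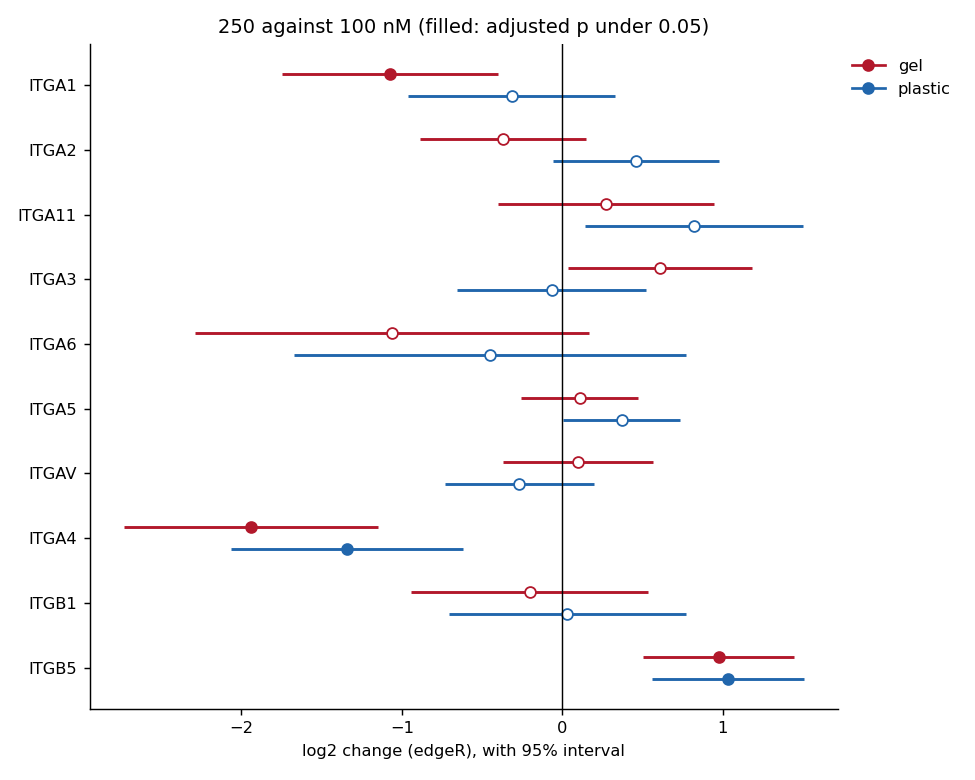
Log2 change of each integrin subunit at 250 nM relative to 100 nM, fitted by edgeR, on gel (red, upper) and plastic (blue, lower). Lines are 95% intervals and filled symbols have an adjusted p under 0.05. ITGA4 lies to the left and ITGB5 to the right of 0 on both substrates, and ITGA1 is filled on gel only; the dose also separates the library sets.

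The windows before the RefSeq starts of the 2 members called on both substrates are shown with the same marks.
ITGA4, chr2:181457136-181457385, plus strand: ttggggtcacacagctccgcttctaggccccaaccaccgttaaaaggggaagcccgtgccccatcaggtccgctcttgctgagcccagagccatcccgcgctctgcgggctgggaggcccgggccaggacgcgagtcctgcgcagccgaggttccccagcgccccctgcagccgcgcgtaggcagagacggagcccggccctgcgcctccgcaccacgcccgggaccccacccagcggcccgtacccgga
ITGB5, chr3:124901419-124901668, minus strand: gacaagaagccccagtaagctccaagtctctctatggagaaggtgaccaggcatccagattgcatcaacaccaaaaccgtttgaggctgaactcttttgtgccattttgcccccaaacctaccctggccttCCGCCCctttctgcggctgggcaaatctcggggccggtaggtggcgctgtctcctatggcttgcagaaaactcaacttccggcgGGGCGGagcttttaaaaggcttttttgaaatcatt
ITGA4 has 1 listed start, which lies 184 bases inside the gene as GENCODE places it, so most of its window is within the annotated gene. That window held 0 matches to the motifs searched, with a GC content of 72.8%. ITGB5 has 3 listed starts, of which the one at the GENCODE gene start was taken, and its window held 2 Sp1 matches with a GC content of 52.8%.

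Most of the other integrin subunits were silent or near it. Of the 16 on the list, 4 passed the filter on low counts and 0 of these 4 passed the test in any comparison. ITGAD, ITGAM and ITGB2, chains of leukocyte integrins, had no count in any library. ITGAE, the alpha chain of an integrin of mucosal T cells, was the most abundant of the 16 by TPM and averaged 40.5 TPM (24.8 CPM) over the 12 libraries. On plastic at 100 nM, where the member ITGA2 averaged 36.1 TPM, ITGAE had 59.8, 40.7 and 35.3 TPM. ITGB7, its usual partner, had 7.76 expected counts in all 12 together. ITGB3, which pairs with alpha V in the classic vitronectin receptor, averaged 3.95 TPM (21.3 CPM), and ITGB8, which pairs with alpha V to release latent TGF-beta, 0.558 TPM (4.74 CPM). In CPM, which is not divided by length, ITGAE and ITGB3 were thus close. Their log2 changes on gel were 0.14 (SE 0.25), -0.04 (SE 0.34) and -0.94 (SE 0.68) for ITGAE, ITGB3 and ITGB8 at 250 nM, and -0.49 (SE 0.24), 0.47 (SE 0.32) and -0.66 (SE 0.56) at 100 nM, with adjusted p-values of at least 0.514 by edgeR's quasi-likelihood test.

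The adaptors that link integrins to actin were counted from a list of 42, of which 40 were tested. In the gel comparisons 0 of 40 were called at 250 nM, at 100 nM or over both doses, with median log2 changes of -0.03, -0.12 and 5.43e-05. Between doses, 2 of the 40 rose and 2 fell on gel, where 13.8% of all tested genes were called, and 1 rose and 4 fell on plastic, where 8.52% were. DOCK1, a Rac activator downstream of integrins, averaged 21.3 ± 1.23 CPM at 250 nM and 47.7 ± 4.65 CPM at 100 nM on gel (SD, n = 3 each, 2.23-fold lower, adjusted p = 0.00500). On plastic it averaged 26.6 ± 1.52 and 50.8 ± 7.54 CPM (1.91-fold lower, adjusted p = 0.0114), but in the fit on log2(TPM + 1) its plastic change was 0.07 and neither substrate passed. VASP, an actin polymerase of adhesions, fell 2.12-fold on gel and 2.00-fold on plastic (adjusted p = 0.00998 and 0.0164). LIMS2, a PINCH adaptor, rose 2.28-fold on gel (adjusted p = 0.0184), and TNS1, which ties integrin tails to actin, rose 1.65-fold on gel and 1.71-fold on plastic (0.0279 and 0.0310). On plastic, ZYX, the gene of zyxin, a protein of focal adhesions, fell to 14.2 ± 1.53 CPM at 250 nM, against 48.0 ± 7.83 CPM at 100 nM (3.37-fold, adjusted p = 0.00590), and FERMT2, the kindlin of fibroblasts, fell 1.89-fold (0.0174). Leaving out 1 library ended neither the DOCK1 nor the VASP call on gel, while LIMS2 there was lost without replicate 1 of gel at 100 nM (0.0647) or replicate 3 of gel at 250 nM (0.0567), and TNS1 without any 1 of 7 libraries (0.0506 to 0.0879). On plastic, leaving out replicate 2 at 250 nM ended the calls of ZYX (0.0507), DOCK1 (0.0667), VASP (0.0929) and FERMT2 (0.104), replicate 3 at 250 nM those of DOCK1 (0.0789), VASP (0.107) and FERMT2 (0.0942), replicate 1 at 100 nM those of VASP (0.0525) and FERMT2 (0.0532), and replicate 2 at 100 nM that of FERMT2 (0.0537).

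Some genes of integrin ligands fell on gel. Of 31 on the list 26 were tested, and on gel 1 was called lower at 250 nM, 3 at 100 nM and 4 over both doses, with 0 called higher, beside 0.00811%, 0.227% and 0.754% of all tested genes called in either direction. The list was chosen with earlier results of these data known, so these counts describe it and do not test it. COL1A1, a chain of collagen I, averaged 596 ± 143 CPM on gel and 2347 ± 326 CPM on plastic at 250 nM (3.94-fold lower, adjusted p = 0.00313), and 492 ± 67 and 1754 ± 77.0 CPM at 100 nM (3.57-fold lower, adjusted p = 0.00329). The partner chain COL1A2 and COL3A1 were called lower at 100 nM (2.62-fold and 6.88-fold, adjusted p = 0.0229 each), and COL5A1 joined them over both doses (1.91-fold, adjusted p = 0.0137). Leaving out 1 library never ended the COL1A1 call, but at 250 nM it was lost by edgeR with only the groups of that dose fitted (adjusted p = 0.128). By limma-trend on log2(TPM + 1), COL1A2 (0.498) and COL3A1 (0.132) did not pass at 100 nM, nor COL5A1 (0.206) over both doses. At 100 nM the COL1A2 call was lost without any 1 of the 6 libraries of that dose (adjusted p from 0.0504 to 0.137) or without replicate 2 (0.0594) or 3 (0.0605) of plastic at 250 nM. The COL3A1 call at 100 nM was lost without replicate 2 or 3 of gel or any plastic library of that dose (0.0693 to 0.112), and the COL5A1 call without replicate 2 (0.0540) or 3 (0.0554) of plastic at 250 nM. ITGA2, ITGA1 and ITGA11, whose products bind these collagens, had adjusted p-values from 0.0834 to 0.797 over both doses. Whether receptor and ligand changes differ was not tested.

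Between doses, 2 of the 26 tested ligand genes rose and 3 fell on gel, beside 13.8% of all tested genes called, and 2 rose and 1 fell on plastic, beside 8.52%, so neither list gave a share far from that of all genes. TGFBI, a secreted protein that binds integrins, rose 1.99-fold on gel and 2.32-fold on plastic (adjusted p = 0.0446 and 0.0280). FN1, the gene of fibronectin and ligand of alpha 5 beta 1, rose 1.74-fold on plastic (adjusted p = 0.0427), and CCN1, a matricellular ligand of alpha V and alpha 6 integrins, fell 4.30-fold there (0.0197). On gel FBN1, fibrillin 1, fell 1.81-fold (adjusted p = 0.0467), SPP1, the gene of osteopontin, rose 5.99-fold at a mean of 8.05 ± 4.31 CPM at 250 nM and 1.32 ± 0.732 CPM at 100 nM (0.0260), and TGFB1 fell (0.0473) with only 4 counts in the 3 libraries at 250 nM. Each of these dose calls was lost when 1 library was left out. TGFBI on plastic lost its call without replicate 2 or 3 of plastic at either dose (adjusted p from 0.0793 to 0.149), CCN1 without replicate 1 at 100 nM (0.0719, with a log2 change of -1.21 in place of -2.11) or replicate 2 (0.102) or 3 (0.0970) at 250 nM, SPP1 without replicate 1 or 2 of gel at 100 nM or replicate 1 or 3 at 250 nM (0.0625 to 0.0875), and TGFBI on gel, FBN1, TGFB1 and FN1 without any 1 of 7 or 8 libraries (0.0540 to 0.210).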

How the data were processed

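Polyadenylated RNA of 12 libraries in 4 groups of 3 was analysed. Per the submitters' processing notes the tools included STAR, RSEM, Trimmomatic and, at version 1.36.0, DESeq2, with GRCh38 as the build. Annotation release, strand setting and any use of molecular identifiers were not stated in the sources used here. Expected counts per gene were deposited as RSEM estimates, per the file headers. TPM values and effective lengths were deposited beside them, per the file headers, the other, effective length, being a length in bases that RSEM weights over a gene's transcripts.

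Expected counts were rounded and tested in R 4.3.3 with edgeR 4.0.16: filterByExpr over the 4 groups left 12329 genes, libraries were scaled by TMM, and 6 comparisons came from a quasi-likelihood fit of the 4 group means, with Benjamini-Hochberg adjustment over all tested genes and a threshold of 0.05. CPM values use the effective library size, and log2 CPM for correlations a prior count of 2. Symbols were matched for 58474 of 61541 identifiers through the supplied name table and GENCODE 29. The edgeR script was tested on simulated data. Precision rests on the depth of each library, lower at 250 nM.

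The members, the 3 gene lists and the marker lists were chosen with earlier results of these data known. Named were all 10 members, up to 4 called genes per list and comparison by lowest p with a mean CPM of at least 1, the 3 most abundant tested other integrins, and the 5 genes most like ITGB1 and ITGB5. Alternatives were RLE and upper-quartile size factors, DESeq2 1.42.0, limma 3.58.1 (voom with sample weights; trend on log2(TPM + 1) and log2(TPM + 0.1)), no filter, a replicate block, only the groups compared, the ribosomal DNA cluster left out, and libraries left out. Figures were drawn with matplotlib 3.10.9.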

Additional observations from a re-analysis of the deposited data

How the results depend on the processing

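Depth limits the members with fewest counts, ITGA4 and ITGA11, and the 250 nM libraries most; the replicate 1 libraries limit ITGA6 and ITGB1, and dose cannot be told apart from library set.

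With 0 members called by edgeR on gel at 100 nM, DESeq2 called 1 (ITGA2), limma-voom 2 (ITGA2 and ITGAV), no filter 2 (ITGA2 and ITGA6), the replicate block 1 (ITGA2) and leaving out replicate 1 of both gel groups, chosen after seeing the data, 1 (ITGA6). The same fits called, in that order, 158, 447, 335, 31 and 88 of all genes. Leaving out 1 library gave 0 to 1 member, beside 3 to 100 of all genes. At 250 nM no filter called 1 (ITGA1), beside 231 of all genes. Over both doses DESeq2 called 1 (ITGA2), limma-voom 4, no filter 3, the replicate block 1 (ITGA2) and leaving out replicate 1 of both gel groups 2 (ITGA1 and ITGA6). These fits called, in that order, 385, 801, 573, 105 and 311 of all genes. With 1 library left out, 0 to 1 member was called, beside 37 to 237 of all genes. Between doses on gel, where 3 were called, fitting only the 2 groups called 1 (ITGA4), no filter 4 (ITGA6 added) and limma-voom 3 with ITGA2 in place of ITGA1. In that order 525, 2255 and 2925 of all genes were called. Leaving out 1 library gave 1 to 3 members, beside 676 to 1843 of all genes. On plastic, where 2 were called, limma-voom called 4, beside 3173 of all genes. Both fits on TPM called 0, beside 701 for log2(TPM + 1) and 594 for log2(TPM + 0.1). Leaving out 1 library gave 0 to 2 members, beside 95 to 2202 of all genes. The labels do not say whether the replicate numbers mark a pairing. Same-numbered replicates had correlations of their deviations from the group means from -0.236 to 0.323, against up to 0.390 between different numbers. Not every library correlated best with its own number. Replicate 1 of gel at 100 nM had r = 0.121 with replicate 1 of gel at 250 nM. With replicate 1 of plastic at 250 nM, r was 0.323 for gel at 100 nM and 0.107 for gel at 250 nM. For replicate 1 of plastic at 100 nM, r was -0.205 with gel at 100 nM, 0.207 with gel at 250 nM and -0.129 with plastic at 250 nM. Under the replicate block the call of ITGA1 on gel between doses was also lost (log2 change -1.03, adjusted p = 0.0600). The total called over all genes ran from 3 to 447 on gel at 100 nM, 0 to 231 at 250 nM and 37 to 801 over both doses, against 28, 1 and 93; it ran from 0 to 129 for the difference between gel effects, 525 to 2925 between doses on gel and 95 to 3173 on plastic, against 0, 1703 and 1050.

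Of the single-gene results 20 changed sign under some alternative, in 77 values of which 31 left out 1 library, and 0 of the reversed values passed the threshold. In the order of the log2(TPM + 1) and log2(TPM + 0.1) fits, the dose change of DOCK1 on plastic was 0.0694 and 0.0732, that of ITGA11 on gel -0.314 and -0.413, that of ITGA3 on gel -0.127 and -0.131, that of ITGA5 on gel -0.0815 and -0.0896, that of ITGAV on gel -0.130 and -0.144, and that of ITGB1 on plastic -0.226 and -0.226. In the same order, the gel change at 250 nM was 0.0409 and 0.0759 for ITGA11 and -0.0899 and -0.0984 for ITGA5. At 100 nM it was 0.0721 and 0.0721 for ITGB1 and -0.0778 and -0.0791 for ITGB5. For ITGB5 the change over both doses was -0.0486 and -0.0493 and the difference between gel effects 0.0584 and 0.0595. The log2(TPM + 1) fit gave -0.0114 for the dose change of ITGA11 on plastic. Limma-voom gave 0.105 for the dose change of ITGA3 on plastic, -0.0611 for that of ITGAV on gel, and 0.0511 and 0.00869 for ITGB1 on gel at 100 nM and over both doses. For ITGB1 between doses on plastic, no filter gave -0.0296 and the replicate block -0.0314. For ITGB5 on gel the replicate block gave -0.000551 at 100 nM and -0.00789 over both doses, where upper-quartile scaling gave -0.00339 and no filter -0.00368.

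Without replicate 1 of plastic at 100 nM and of gel at 250 nM together, the dose change was 0.234 for ITGA3 on plastic, -0.177 for ITGAV on gel and 0.119 for ITGB1 on gel, and for ITGB1 the gel change was 0.0712 at 250 nM and 0.0289 over both doses and the difference between gel effects 0.0846. Without replicate 1 of both gel groups, the dose change of ITGAV on gel was -0.0464, the gel change of ITGB1 0.0921 at 250 nM, 0.192 at 100 nM and 0.142 over both doses, and that of ITGB5 0.00782 at 250 nM. Leaving out 1 library in turn gave ranges that crossed 0. On gel at 250 nM they were -0.370 to 0.265 for ITGA11, -0.0613 to 0.0849 for ITGA5, -0.119 to 0.821 for ITGA6, -0.473 to 0.0793 for ITGB1 and -0.183 to 0.0509 for ITGB5. On gel at 100 nM they were -0.150 to 0.191 for ITGB1 and -0.166 to 0.205 for ITGB5, and over both doses -0.248 to 0.0314 and -0.0959 to 0.0899. For the difference between gel effects they were -0.452 to 0.0959 for ITGB1 and -0.229 to 0.140 for ITGB5. Between doses they were -0.178 to 0.223 for ITGAV and -0.429 to 0.116 for ITGB1 on gel, and -0.231 to 0.237 for ITGA3 and -0.0861 to 0.206 for ITGB1 on plastic. The cause of these changes was not tested.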
